A study of Mus musculus with 16 samples.

Results

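The genes described here are the SLAM family receptors Slamf1, Slamf6, Slamf7, Cd48, Cd84 and Ly9, the SAP adaptor gene Sh2d1a and the related adaptor gene Sh2d2a. A gene was a member when the platform annotation gave its symbol to a probe set of the array, and of several probe sets for a gene that with the highest mean was to be taken. All 8 members were measured, among 19938 genes in all, and each had exactly 1 probe set. The rule itself used no measured value, but the members were listed with earlier results of these data known.

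RNA came from mouse CD8 T cells of a pair of clones, a conventional one labelled cyclosporine-sensitive and an unconventional one labelled cyclosporine-resistant. Every group was activated with immobilized antibody to CD3 (145-2c11) in medium lacking recombinant cytokines, and each clone was studied without or with cyclosporine A at 1 ug/ml, an inhibitor of the phosphatase calcineurin that activates NFAT transcription factors. The groups were the conventional clone with anti-CD3 only, the conventional clone with anti-CD3 and cyclosporine A, the unconventional clone with anti-CD3 only, and the unconventional clone with anti-CD3 and cyclosporine A, with 4 arrays each. Both clones had been grown in a mixture of cytokines before activation, and unstimulated cells were not analysed here, so no value below is a response to CD3. Each type of T cell is represented by 1 clone, so a difference between the types and a difference between these clones cannot be told apart. The labels do not say whether the replicates were separate cultures. P-values therefore cover the spread among these samples and no more, and that spread may be technical.

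SLAM family receptors are immunoglobulin-like proteins on the surface of blood cells, and most of them bind the same receptor on a neighbouring cell. CD48 differs in that it is anchored in the membrane by lipid, has no signalling tail of its own, and is bound by the receptors 2B4 and CD2. The tails of the other receptors among the members carry tyrosine motifs that recruit small adaptors of the SAP family. SAP itself, the product of Sh2d1a, brings the kinase Fyn to the receptor, and without it the same motifs recruit phosphatases. In CD8 T cells the pair shapes contact with target cells and killing, in particular of B cells. Sh2d2a encodes TSAd, a T cell adaptor with an SH2 domain that binds the kinase Lck and is induced on activation.

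Cyclosporine A acts on NFAT, which often binds DNA beside AP-1, so the letters of these motifs were looked up in the 250 bases before the annotated start of each member. Windows from RefSeq, on build GRCm38.p6, were used for 5 of the 8 members, Slamf1, Slamf6, Slamf7, Cd48 and Cd84, and Ly9, Sh2d1a and Sh2d2a were not analysed here in this way. The motifs were the NFAT core GGAAA, whose first letters are also the core of ETS factors, the AP-1 motif TGANTCA and the RUNX core TGTGGT, each on both strands. Windows are shown for Slamf7 and Cd48, which were lower with cyclosporine A in the unconventional clone, and for Cd84, which differed most between the clones among the 6 receptors. Capitals mark the matches, and TTTCC is the NFAT core read on the other strand. The windows lie at chr1:171649000-171649249 on the minus strand for Slamf7, chr1:171681742-171681991 on the plus strand for Cd48 and chr1:171839447-171839696 on the plus strand for Cd84.
Slamf7: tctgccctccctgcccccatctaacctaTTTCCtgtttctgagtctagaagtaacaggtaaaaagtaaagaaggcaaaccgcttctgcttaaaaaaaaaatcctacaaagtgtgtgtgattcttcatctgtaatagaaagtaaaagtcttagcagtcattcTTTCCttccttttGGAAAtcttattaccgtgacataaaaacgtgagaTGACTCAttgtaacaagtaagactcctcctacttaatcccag
Cd48: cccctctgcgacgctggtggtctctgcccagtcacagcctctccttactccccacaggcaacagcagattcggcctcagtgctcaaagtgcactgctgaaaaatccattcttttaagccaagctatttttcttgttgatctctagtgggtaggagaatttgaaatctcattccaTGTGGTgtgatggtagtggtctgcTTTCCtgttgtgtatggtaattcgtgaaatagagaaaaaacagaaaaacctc
Cd84: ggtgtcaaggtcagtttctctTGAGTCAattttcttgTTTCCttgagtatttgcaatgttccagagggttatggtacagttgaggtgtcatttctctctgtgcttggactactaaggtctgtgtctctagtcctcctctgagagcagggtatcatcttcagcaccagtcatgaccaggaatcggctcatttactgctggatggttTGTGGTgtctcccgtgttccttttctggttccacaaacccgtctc

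The Slamf7 window held 3 NFAT core matches, at 222, 89 and 76 bases before the start, and an AP-1 match that began 42 bases before it. The Cd48 window held 1 NFAT core match at 52 bases and 1 RUNX match at 76 bases, and no AP-1 match. The Cd84 window held 1 NFAT core match at 213 bases, 1 AP-1 match at 229 bases and 1 RUNX match at 45 bases. In Slamf1 there was 1 NFAT core match and neither of the other motifs, and Slamf6 had none of the 3 motifs. Of 32851 windows of the same length, 55.6% held the NFAT core, 6.75% the AP-1 motif, 14% the RUNX core, and 3.82% both the NFAT core and the AP-1 motif. A match describes letters in the annotated window, and which start these clones used was not tested.

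Values below are log2 expression values on the array's own scale, given per array in the order of replicates 1 to 4 or as mean ± SD, and a change is a difference of log2 values. Each probe set has its own response, so levels of different genes cannot be compared closely. Where a level is called high or low, or cell type markers are read side by side, this is a rough guide only. A gene was called when limma's Benjamini-Hochberg adjusted p over all genes was under 0.05. In RNA from whole cultures, fewer cells that express a gene and less RNA per cell cannot be told apart.

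**Figure D1:**
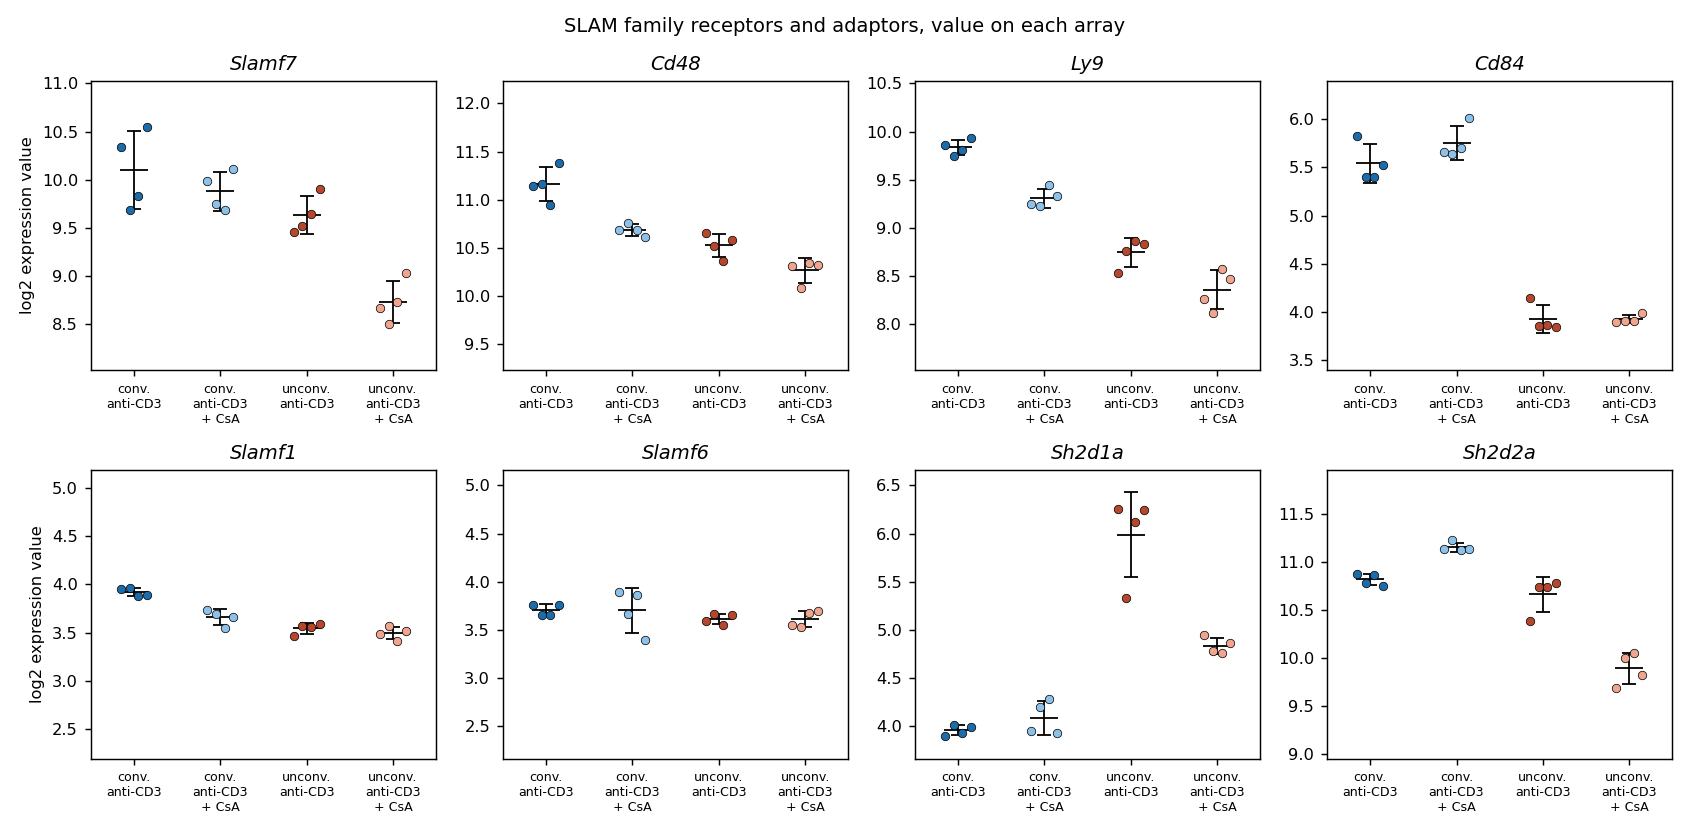
Log2 expression value (vertical axis, the same span in every panel) of the 8 SLAM members on each of the 16 arrays, by group (horizontal axis; conv. and unconv. are the clones, CsA is cyclosporine A); points are arrays and bars are mean ± SD, n = 4. Ly9 and Cd84 separate the clones, Sh2d1a is highest on the 4 arrays of the unconventional clone with anti-CD3 only, and Sh2d2a moves apart between the clones when cyclosporine A is added.

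More members were called between the clones than with the drug, as was also the case over all genes. With anti-CD3 only, 5 of 8 members were lower and 1 was higher in the unconventional clone, where 42% of all genes tested were called (20.3% higher and 21.7% lower). With cyclosporine A, 6 were lower and 1 was higher, against 44.2% of all genes (21.3% higher and 23% lower). Cyclosporine A changed 4 members in the conventional clone, 3 lower and 1 higher, where 31.4% of all genes were called (15.9% higher and 15.5% lower). It changed 5 members in the unconventional clone, all lower, where 24.9% of all genes were called (12.6% higher and 12.3% lower). The effect of the drug differed between the clones for 3 members, Slamf7, Sh2d1a and Sh2d2a, all more negative in the unconventional clone, where 16.3% of all genes were called (8.51% more positive and 7.78% more negative). The contrasts share arrays, so these counts do not support one another.

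The median change of the 8 members lay below that of all genes in each contrast. It was -0.42 against -0.07 for the clones with anti-CD3 only and -0.69 against -0.08 with cyclosporine A. For the drug it was -0.11 against 0.02 in the conventional clone and -0.33 against 0.02 in the unconventional clone. Changes of 2-fold or more were called for 3 members between the clones in either condition, where 7.74% and 9.84% of genes passed that rule, for 1 member with the drug in the unconventional clone (2.3% of genes) and for 0 in the conventional clone (5.06%). The drug effects differed by 2-fold or more for Sh2d1a and Sh2d2a, 2 of 8 members, where 3.12% of genes passed that rule. Members whose arrays did not overlap between the groups numbered 4 for the drug in each clone (30.5% and 27.2% of all genes did not overlap), 5 between the clones with anti-CD3 only (38.6%) and 6 with cyclosporine A (42.2%).

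**Figure D2:**
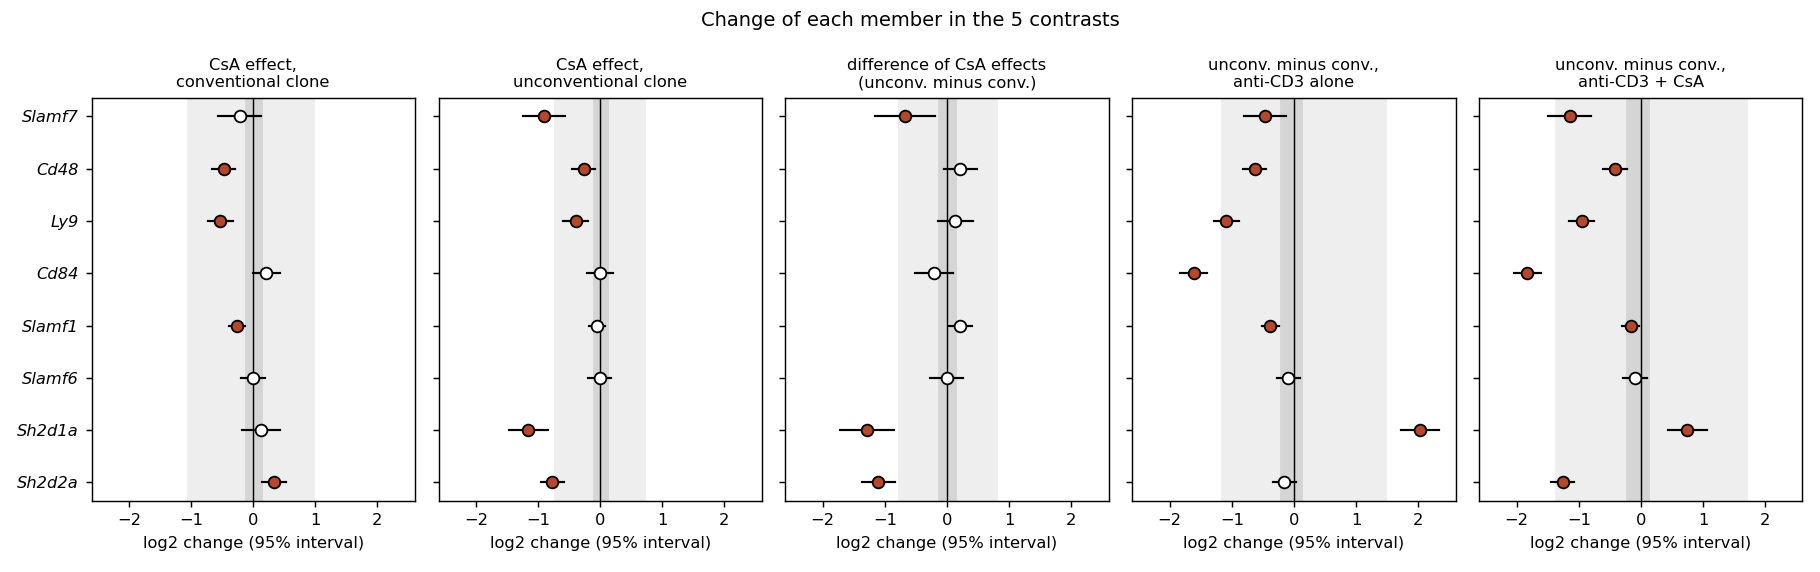
Log2 change with its 95% confidence interval (horizontal axis) of each SLAM member in the 5 contrasts; filled points were called at an adjusted p under 0.05 and open points were not. The dark and pale bands hold the middle 50% and the middle 95% of all 19938 genes: Cd84 and Sh2d1a lie outside the pale band between the clones with anti-CD3 only, and Slamf7, Sh2d1a and Sh2d2a lie outside it for the drug in the unconventional clone.

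Ly9, a receptor that binds itself and is found on T and B cells, was high on all arrays, and its level stepped down from group to group. In the conventional clone the arrays read 9.86, 9.75, 9.81 and 9.93 with anti-CD3 only and 9.25, 9.22, 9.44 and 9.33 with cyclosporine A. In the unconventional clone they read 8.53, 8.76, 8.87 and 8.83 with anti-CD3 only and 8.26, 8.12, 8.57 and 8.47 with the drug. All 8 arrays of the conventional clone stood above all 8 of the unconventional clone, while within the unconventional clone 1 drug array, at 8.57, lay above the lowest untreated array. Ly9 fell by 0.53 (SE 0.10, limma adjusted p = 0.000159) with the drug in the conventional clone and by 0.39 (SE 0.10, adjusted p = 0.00369) in the unconventional one. The difference of these effects was 0.14, with a 95% interval from -0.15 to 0.42 (limma adjusted p = 0.633). Between the clones Ly9 was 2.13-fold lower in the unconventional clone with anti-CD3 only (log2 change -1.09, SE 0.10, limma adjusted p = 9.84e-09) and 1.94-fold lower with cyclosporine A (-0.95, SE 0.10, adjusted p = 5.06e-08).

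Cd48, the lipid-anchored ligand of 2B4 and CD2, had the same order of groups as Ly9 over a narrower range. In the conventional clone Cd48 read 11.14, 11.17, 10.95 and 11.39 with anti-CD3 only and 10.69, 10.76, 10.68 and 10.61 with cyclosporine A. In the unconventional clone it read 10.65, 10.52, 10.37 and 10.58 with anti-CD3 only and 10.31, 10.08, 10.35 and 10.33 with the drug. The 4 untreated arrays of the conventional clone were the highest and the 4 drug arrays of the unconventional clone the lowest, while the treated conventional and untreated unconventional groups overlapped. Cd48 fell by 0.48 with the drug in the conventional clone (SE 0.09, limma adjusted p = 0.00025) and was lower in the unconventional clone with anti-CD3 only (-0.63, SE 0.09, adjusted p = 7.6e-06) and with the drug (-0.42, SE 0.09, adjusted p = 0.00063).

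The fall of Cd48 with the drug in the unconventional clone was small, 0.26 on the log2 scale (SE 0.09, limma adjusted p = 0.0365), and the call was lost with quantile normalization (-0.21, adjusted p = 0.0841). It was also lost without replicate 1, 2 or 4 of that clone with anti-CD3 only (-0.22, -0.27 and -0.25) and without replicate 1 or 2 with the drug (-0.28 and -0.20), at limma adjusted p-values between 0.0531 and 0.149. The drug's effect on Cd48 differed between the clones by 0.21, with a 95% interval from -0.05 to 0.48 (limma adjusted p = 0.333).

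Slamf7, also called CRACC, is a self-binding receptor of cytotoxic lymphocytes that in NK cells signals through the adaptor EAT-2. The conventional clone read 10.34, 9.68, 9.83 and 10.54 with anti-CD3 only and 9.98, 9.74, 9.69 and 10.12 with cyclosporine A. The unconventional clone read 9.46, 9.52, 9.64 and 9.91 with anti-CD3 only and 8.67, 8.51, 8.73 and 9.03 with the drug. The 4 drug arrays of the unconventional clone stood below the other 12, which overlapped between neighbouring groups, and the untreated conventional arrays spread over the widest range (SD 0.41, against 0.20 to 0.22 in the other groups). Slamf7 fell 1.86-fold with the drug in the unconventional clone (log2 change -0.90, SE 0.16, limma adjusted p = 0.000247). In the conventional clone the change was -0.22, with a 95% interval from -0.56 to 0.12 (limma adjusted p = 0.37). With cyclosporine A present it was 2.22-fold lower in the unconventional than in the conventional clone (-1.15, SE 0.16, limma adjusted p = 5.58e-06).

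For Slamf7 the difference of the drug effects was -0.68 (SE 0.23), called by a narrow margin (limma adjusted p = 0.0493). The call was lost with a trended, robust variance (adjusted p = 0.0786) and without any one of 10 of the 16 arrays, at values from -0.72 to -0.54 and adjusted p-values from 0.0575 to 0.11. Those arrays were replicates 2 and 3 of the conventional clone with anti-CD3 only, 1 and 4 of that clone with the drug, 2, 3 and 4 of the unconventional clone with anti-CD3 only, and 1, 2 and 3 of that clone with the drug. With anti-CD3 alone the clones overlapped in Slamf7 and differed by -0.47 (SE 0.16, limma adjusted p = 0.0248). That call was lost with median centring (-0.40, adjusted p = 0.0546), with array weights (-0.40, adjusted p = 0.0562), and without conventional replicate 1 or 4 (-0.39 and -0.32) or unconventional replicate 1 or 2 (-0.41 and -0.43), at adjusted p-values between 0.0643 and 0.111.

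Cd84, another self-binding receptor, differed most between the clones among the member receptors and was in the lower part of the array's scale. Cd84 in the conventional clone read 5.83, 5.40, 5.41 and 5.53 with anti-CD3 only and 5.66, 5.64, 5.70 and 6.02 with cyclosporine A. In the unconventional clone it read 4.14, 3.85, 3.86 and 3.84 with anti-CD3 only and 3.90, 3.91, 3.90 and 3.99 with the drug. The lowest conventional array was above the highest unconventional array by more than the spread within any group. Cd84 was 3.07-fold lower in the unconventional clone with anti-CD3 only (log2 change -1.62, SE 0.10, limma adjusted p = 7.51e-11) and 3.55-fold lower with the drug (-1.83, SE 0.10, adjusted p = 7.27e-12). Near the lower end of the scale such a fold tends to understate the change in RNA.

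The effect of cyclosporine A on Cd84 was called in neither clone. The change was 0.21 in the conventional clone, with a 95% interval from -0.0008 to 0.43 (limma adjusted p = 0.133), and 0.00 in the unconventional clone, with an interval from -0.21 to 0.21 (adjusted p = 0.999). Without replicate 1 of the conventional clone with anti-CD3 only, the highest array of that group, the conventional change was 0.31 and was called (limma adjusted p = 0.0177).

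Slamf1, the receptor that gave the family its name, read low on every array, between 3.42 and 3.96. Only 15.4% of genes had a lower mean than Slamf1, and whether values this near the lower end reflect its RNA was not tested. The conventional clone with anti-CD3 only was the highest group, at 3.95, 3.96, 3.88 and 3.89, against 3.74, 3.69, 3.55 and 3.66 with the drug. The unconventional clone read 3.46, 3.57, 3.55 and 3.59 without and 3.48, 3.57, 3.42 and 3.51 with it. Only the untreated conventional group stood clear of the others, and the remaining 3 groups overlapped with their neighbours. Slamf1 fell by 0.26 (SE 0.06, limma adjusted p = 0.00261) with the drug in the conventional clone and was lower by 0.38 (log2 change -0.38, SE 0.06, adjusted p = 5.46e-05) in the unconventional clone with anti-CD3 only. With the drug in the unconventional clone it changed by -0.05, with a 95% interval from -0.18 to 0.08 (limma adjusted p = 0.688), and the drug effects differed by 0.21, with an interval from 0.03 to 0.40 (adjusted p = 0.129).

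With cyclosporine A the clones differed in Slamf1 by -0.17 (SE 0.06, limma adjusted p = 0.0391), with overlapping arrays. This call was lost under median centring (-0.12), quantile normalization (-0.08), cyclic loess (-0.07), a trended, robust variance and a fit of those 2 groups alone, with limma adjusted p-values from 0.064 to 0.425. It was also lost without replicate 1, 2 or 4 of the treated conventional clone or replicate 1, 3 or 4 of the treated unconventional clone (values from -0.17 to -0.14, adjusted p from 0.0603 to 0.116).

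Slamf6, known as Ly108, a self-binding receptor of T and NK cells, read between 3.39 and 3.90 on all arrays and was called in none of the 5 contrasts. The conventional clone read 3.75, 3.65, 3.65 and 3.76 with anti-CD3 only and 3.90, 3.66, 3.86 and 3.39 with the drug, and the unconventional clone read 3.59, 3.66, 3.55 and 3.66 and then 3.55, 3.53, 3.67 and 3.69. All neighbouring groups overlapped. The drug's change was 0.00 in the conventional clone (95% interval -0.19 to 0.19, limma adjusted p = 0.992) and -0.01 in the unconventional clone (-0.19 to 0.18, adjusted p = 0.979). Between the clones the change was -0.09 with anti-CD3 only (-0.28 to 0.10, limma adjusted p = 0.46) and -0.09 with the drug (-0.28 to 0.10, adjusted p = 0.427). Without replicate 4 of the treated conventional clone, its lowest array, the last of these was -0.20 and was called (limma adjusted p = 0.0452).

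Sh2d1a, which encodes SAP, was the only member called higher in the unconventional clone. The conventional clone read 3.89, 4.01, 3.93 and 3.99 with anti-CD3 only and 3.95, 4.19, 4.28 and 3.93 with cyclosporine A. The unconventional clone read 6.25, 5.33, 6.12 and 6.25 with anti-CD3 only and 4.94, 4.78, 4.76 and 4.86 with the drug. Every unconventional array was above every conventional one, and every untreated unconventional array was above every treated one, replicate 2 at 5.33 included. Sh2d1a was 4.09-fold higher in the unconventional clone with anti-CD3 only (log2 change 2.03, SE 0.15, limma adjusted p = 5.84e-10) and 1.68-fold higher with the drug (0.75, SE 0.15, adjusted p = 0.000261). The conventional values lie near the lower end of the array's scale.

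Cyclosporine A lowered Sh2d1a 2.22-fold in the unconventional clone (log2 change -1.15, SE 0.15, limma adjusted p = 5.18e-06). In the conventional clone, where the level was already low, the change was 0.13, with a 95% interval from -0.18 to 0.44 (limma adjusted p = 0.588). The drug effects differed by -1.28 (SE 0.21, limma adjusted p = 0.000145). With each of the 16 arrays left out in turn this difference lay between -1.50 and -1.19 and stayed called.

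Sh2d2a, which encodes TSAd, was high in both clones and was the one member that the drug moved in opposite directions. Sh2d2a in the conventional clone read 10.87, 10.78, 10.86 and 10.75 with anti-CD3 only and 11.13, 11.22, 11.13 and 11.13 with cyclosporine A. The unconventional clone read 10.38, 10.74, 10.74 and 10.78 with anti-CD3 only and 9.69, 10.00, 10.05 and 9.83 with the drug. The drug arrays lay above all untreated arrays in the conventional clone and below all of them in the unconventional clone, and the untreated groups of the clones overlapped. Sh2d2a rose by 0.33 (SE 0.09, limma adjusted p = 0.00636) in the conventional clone and fell 1.70-fold in the unconventional one (log2 change -0.77, SE 0.09, adjusted p = 1.93e-06).

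The difference of the drug effects on Sh2d2a was -1.10 (SE 0.13, limma adjusted p = 2.96e-06), between -1.20 and -1.04 with each array left out in turn. With anti-CD3 alone the clones differed by -0.16, with a 95% interval from -0.35 to 0.03 (limma adjusted p = 0.179). With cyclosporine A, Sh2d2a was 2.39-fold lower in the unconventional clone (-1.26, SE 0.09, limma adjusted p = 3.56e-10), and the arrays of the clones lay far apart.

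Over the 16 arrays the receptors rose and fell together to different degrees, as a description in which the 4 group means supply most of the variation. Pearson's r was 0.92 for Cd48 and Ly9, 0.85 for Slamf7 and Ly9, 0.85 for Cd84 and Ly9, and 0.87 for Slamf1 and Ly9. For Slamf6 it was between 0.27 and 0.40 with every other receptor. Over all arrays Sh2d1a ran against the receptors, with r from -0.82 with Cd84 to -0.30 with Slamf6. Within the unconventional clone, though, Sh2d1a was lower with the drug, as were Slamf7, Ly9 and Cd48, the last with the limits given above. Sh2d2a had r of 0.82 with Slamf7 and -0.35 with Sh2d1a.

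The genes whose pattern was most like each member were taken as the 3 with the highest r over the same 16 arrays, which share the 4 groups. Those nearest to Ly9 were Got1 (r = 0.99), Cd69 (0.98) and Aida (0.98), of which Cd69 is an early activation marker of lymphocytes. Those nearest to Cd84 were Tmem229b, Neurl3 and Dusp5 (each 0.99), and those nearest to Cd48 were Bzw2, Utp23 and Nxn (each 0.95). Slamf7 was nearest to Gng11 (0.96), Bcl3 (0.93), a regulator of NF-kB, and Maff (0.93). Sh2d1a was nearest to H2bc9, Lonrf1 and Mob3b (each 0.96), and Sh2d2a to Asph (0.97), Gm5486 (0.96) and Prf1 (0.95), the last of which encodes the pore protein perforin. Slamf1 was nearest to Rab12 (0.97), Rtn4 (0.96) and Ggh (0.95), and Slamf6 had no gene above 0.85, the value of Igll1, followed by Cacng4 and Olfr1105 (each 0.80).

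Of 22 other genes of the SLAM pathway on a list of receptors, adaptors and downstream proteins, 20 were measured as genes with a symbol of their own. In the conventional clone the drug raised 10 and lowered 4, where 31.4% of all genes were called, with a list median of 0.19 against 0.02 over all genes. In the unconventional clone it raised 8 and lowered 2, where 24.9% of all genes were called (0.09 against 0.02). The drug effects differed for 11, of which 4 were more positive and 7 more negative in the unconventional clone, where 16.3% of all genes were called (-0.12 against 0.00). Between the clones 7 were higher and 6 lower with anti-CD3 only, where 42% of all genes were called (-0.01 against -0.07), and 4 higher and 11 lower with the drug, where 44.2% were (-0.30 against -0.08).

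Among the receptors of CD48, Cd244a, which encodes 2B4, divided the clones. The conventional clone read 5.68, 5.53, 5.21 and 5.25 with anti-CD3 only and 5.66, 5.83, 5.36 and 5.27 with the drug. The unconventional clone read 8.30, 8.47, 8.44 and 8.61 and then 9.01, 9.09, 9.32 and 9.07, all above every conventional array. It was 8.21-fold higher in the unconventional clone with anti-CD3 only (log2 change 3.04, SE 0.12, limma adjusted p = 8.03e-14) and 12.1-fold higher with the drug (3.59, SE 0.12, adjusted p = 4.03e-15), opposite in direction to its ligand gene Cd48. The drug raised Cd244a by 0.66 (SE 0.12, limma adjusted p = 0.000307) in the unconventional clone, and in the conventional clone the change was 0.11, with a 95% interval from -0.15 to 0.36 (adjusted p = 0.585).

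For Cd244a the drug effects differed by 0.56 (SE 0.17, limma adjusted p = 0.0325), but the call was lost under median centring (0.53, adjusted p = 0.0722). It was also lost, at values from 0.47 to 0.56 and adjusted p-values from 0.0504 to 0.0764, without replicate 1 or 2 of the untreated conventional clone, 3 or 4 of the treated one, 1, 2 or 3 of the untreated unconventional clone, or 3 of the treated one.

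Cd2, the other receptor of CD48, read between 3.73 and 4.41 on all arrays, in the lower part of the scale. It rose by 0.26 with the drug in the conventional clone (SE 0.09, limma adjusted p = 0.0355) and was lower in the unconventional clone with the drug (-0.25, SE 0.09, adjusted p = 0.0362). The first call was lost under median centring (0.24), in a fit of those groups alone, and without replicate 2 of the untreated or 2, 3 or 4 of the treated conventional clone (values from 0.18 to 0.27, limma adjusted p from 0.0569 to 0.157). The second was lost under median centring (-0.20), quantile normalization (-0.16) and cyclic loess (-0.14), and without replicate 2, 3 or 4 of the treated conventional or 1 or 4 of the treated unconventional clone (values from -0.25 to -0.19, limma adjusted p from 0.0535 to 0.123). In the unconventional clone the drug's change of Cd2 was -0.05 (limma adjusted p = 0.8), the effects differed by -0.31 (adjusted p = 0.127), and the clones with anti-CD3 only differed by 0.06 (adjusted p = 0.607).

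**Figure D3:**
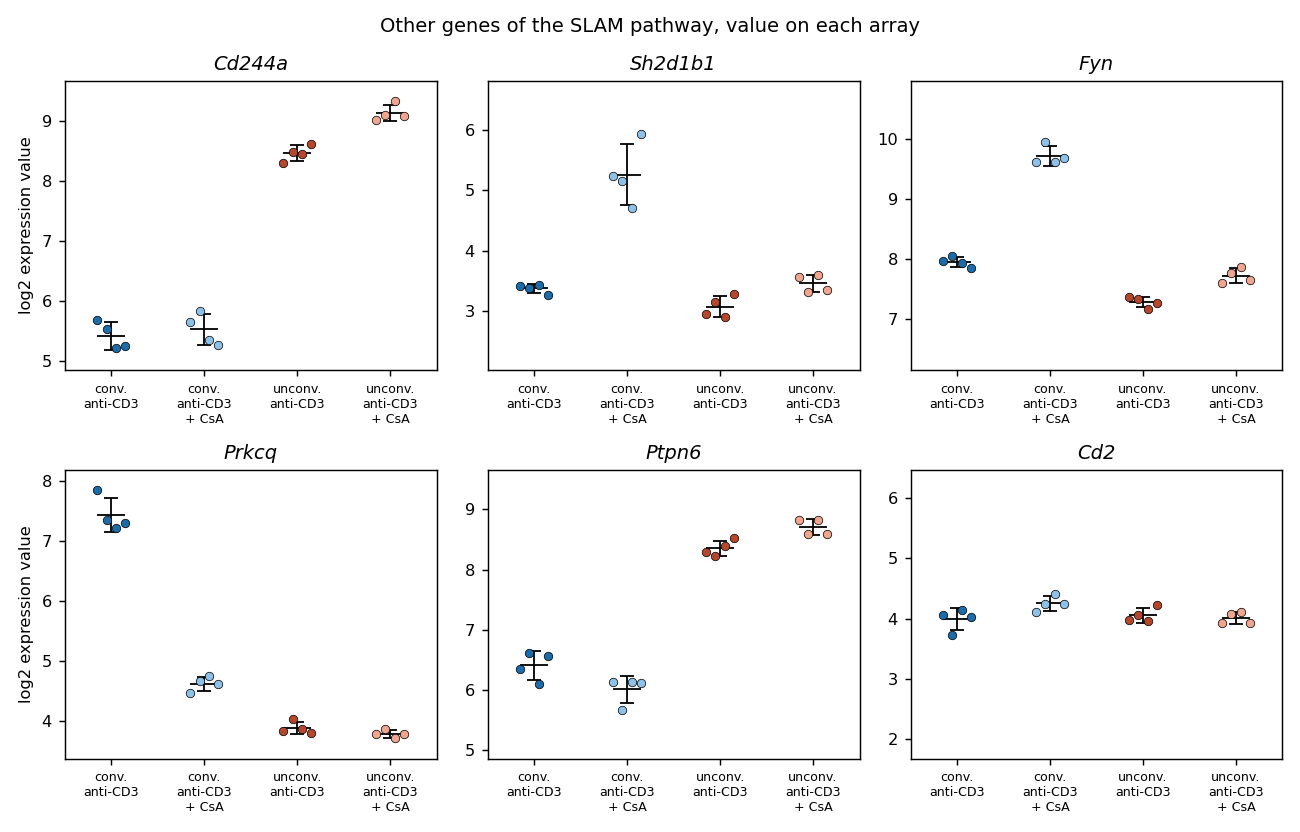
Log2 expression value (vertical axis, the same span in every panel) of 6 other SLAM pathway genes on each array, by group (horizontal axis); points are arrays and bars are mean ± SD, n = 4. Cd244a and Ptpn6 are higher on all arrays of the unconventional clone, Sh2d1b1 and Fyn are highest on the 4 arrays of the treated conventional clone, and Prkcq is highest on the 4 arrays of the untreated conventional clone.

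Fyn, the kinase that SAP recruits, read 7.97, 8.05, 7.93 and 7.85 in the conventional clone with anti-CD3 only and 9.61, 9.95, 9.60 and 9.68 with the drug. In the unconventional clone it read 7.37, 7.34, 7.17 and 7.28 and then 7.60, 7.77, 7.87 and 7.65. No 2 groups compared in a contrast overlapped, and the unconventional clone, in which Sh2d1a was higher, had the lower Fyn. Fyn was lower there with the drug (log2 change -1.99, SE 0.08, limma adjusted p = 1.28e-13) and with anti-CD3 only (-0.67, SE 0.08, adjusted p = 1.96e-06). The drug's rise was 1.76 in the conventional clone (SE 0.08, limma adjusted p = 2.71e-12) and 0.44 in the unconventional one (SE 0.08, adjusted p = 0.000514), and the effects differed by -1.32 (SE 0.12, adjusted p = 1.41e-07).

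Sh2d1b1 encodes EAT-2, a SAP family adaptor known from NK cells and not usually from T cells. It read 3.41, 3.38, 3.43 and 3.26 in the conventional clone with anti-CD3 only and 5.24, 5.15, 4.71 and 5.94 with the drug, while the unconventional clone read between 2.89 and 3.60 on its 8 arrays. The 4 treated conventional arrays stood above the other 12. The drug raised it in the conventional clone (log2 change 1.89, SE 0.17, limma adjusted p = 1.85e-08), from a level at the low end of the scale, where a change in RNA tends to be understated. The effects differed by -1.50 (SE 0.24, adjusted p = 0.000108), and it was lower in the unconventional clone with the drug (-1.81, SE 0.17, adjusted p = 1.74e-08).

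Of the phosphatases that bind the tyrosine motifs, Ptpn6, which encodes SHP-1, had means of 6.41 ± 0.23 and 6.01 ± 0.22 (SD, n = 4) in the conventional clone without and with the drug, and of 8.35 ± 0.13 and 8.71 ± 0.14 in the unconventional one. It was higher in the unconventional clone by 1.95 with anti-CD3 only (SE 0.12, limma adjusted p = 4.22e-11) and by 2.70 with the drug (SE 0.12, adjusted p = 1.86e-13). The drug's effect was -0.40 in the conventional clone (SE 0.12, limma adjusted p = 0.0127, arrays overlapping) and 0.36 in the unconventional one (SE 0.12, adjusted p = 0.0314), and these differed by 0.75 (SE 0.17, adjusted p = 0.00299). The conventional call was lost without replicate 2 of either conventional group (-0.33 and -0.29), and the unconventional call without replicate 1, 2 or 3 of the untreated or 1 or 3 of the treated group (0.31 to 0.37), at limma adjusted p-values up to 0.0565 and 0.0995. Ptpn11, another such phosphatase gene, differed less. It was higher in the unconventional clone by 0.285 with anti-CD3 only (limma adjusted p = 0.00346) and by 0.22 with the drug (adjusted p = 0.0172). The drug's effect on Ptpn11 was called in neither clone.

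The lipid phosphatase gene Inpp5d, which encodes SHIP-1, rose with the drug by 1.61 in the conventional clone (SE 0.08, limma adjusted p = 2.3e-12) and by 0.72 in the unconventional one (SE 0.08, adjusted p = 5.44e-07), and the effects differed by -0.89 (SE 0.11, adjusted p = 5.51e-06). It was higher in the unconventional clone with anti-CD3 only (0.83, SE 0.08, limma adjusted p = 2.5e-08), while with the drug the clones differed by -0.07, with a 95% interval from -0.23 to 0.10 (adjusted p = 0.514). The Dok adaptors and the Ras GTPase-activating protein gene Rasa1, which act with SHIP-1 below these receptors, included large changes. Dok2 rose with the drug by 2.76 in the conventional clone (SE 0.10, limma adjusted p = 4.84e-14), and the effects differed between the clones by -2.47 (SE 0.14, adjusted p = 3.56e-10). With the drug Dok2 was lower in the unconventional clone (log2 change -3.07, SE 0.10, limma adjusted p = 2.31e-15). Dok1 was lower in the unconventional clone with anti-CD3 only (-1.25, SE 0.10, limma adjusted p = 2.87e-09) and with the drug (-0.82, SE 0.10, adjusted p = 9.59e-07).

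Rasa1 rose with the drug by 1.46 in the conventional clone (SE 0.09, limma adjusted p = 1.19e-10) and by 0.38 in the unconventional one (SE 0.09, adjusted p = 0.00342), and the effects differed by -1.08 (SE 0.13, adjusted p = 4.53e-06). In the unconventional clone it was lower with the drug (-0.85, SE 0.09, limma adjusted p = 1.61e-07) and higher with anti-CD3 only (0.23, SE 0.09, adjusted p = 0.0469). The last call was lost with quantile normalization (0.14, limma adjusted p = 0.213), cyclic loess (0.16, adjusted p = 0.166) and a fit of those groups alone (adjusted p = 0.0775). It was also lost without replicate 2, 3 or 4 of the untreated conventional clone, 3 or 4 of the treated one, 1, 2 or 3 of the untreated unconventional clone, or any of the 4 treated ones (values from 0.18 to 0.24, limma adjusted p from 0.0507 to 0.154).

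Prkcq encodes protein kinase C theta, which together with Bcl10 links SAP and Fyn to NF-kB. It read 7.84, 7.35, 7.22 and 7.30 in the conventional clone with anti-CD3 only and 4.47, 4.67, 4.75 and 4.62 with the drug, and the unconventional clone read between 3.72 and 4.04. The 4 untreated conventional arrays stood alone. Prkcq fell by 2.80 with the drug in the conventional clone (SE 0.11, limma adjusted p = 8.42e-14), and in the unconventional clone, where it was already low, the change was -0.10 with a 95% interval from -0.32 to 0.12 (adjusted p = 0.606).

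The drug effects on Prkcq differed by 2.70 (SE 0.15, limma adjusted p = 2.39e-10), and it was lower in the unconventional clone with anti-CD3 only (log2 change -3.54, SE 0.11, adjusted p = 8.27e-16) and with the drug (-0.84, SE 0.11, adjusted p = 1.38e-06). Bcl10 fell with the drug by 0.43 in the conventional clone (SE 0.11, limma adjusted p = 0.00423) and by 0.54 in the unconventional one (SE 0.11, adjusted p = 0.000788). These effects differed by -0.11, with a 95% interval from -0.43 to 0.21 (limma adjusted p = 0.759). Gata3, a transcription factor that SAP and Fyn are known to promote in CD4 T cells, rose with the drug in the conventional clone (means of 7.47 ± 0.13 and 8.41 ± 0.18, SD, n = 4) and fell in the unconventional one by 0.47 (SE 0.10, limma adjusted p = 0.000784). Its drug effects differed by -1.42 (SE 0.14, limma adjusted p = 2.98e-07), and it was higher in the unconventional clone with anti-CD3 only (0.75, SE 0.10, adjusted p = 1.98e-06) and lower there with the drug (-0.66, SE 0.10, adjusted p = 8.57e-06).

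Slamf8 and Slamf9, receptors of the same family that are known from myeloid cells, were called in none of the 5 contrasts. Slamf8 group means lay between 4.21 and 4.39, and Slamf9 means between 5.19 and 5.40. Zbtb16, the transcription factor of NKT cells, whose development needs SAP, was also called in none, with group means between 4.58 and 4.87.

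The 6 receptor genes follow one another among the measured genes of chromosome 1, in the order Ly9, Slamf7, Cd48, Slamf1, Cd84 and Slamf6, with Cd244a next to Ly9, per the gene table of assembly GRCm38.p6, while Sh2d1a lies on chromosome X and Sh2d2a on chromosome 3. Of the 14 genes the table lists from Ly9 to Slamf6 these 6 were among the genes tested. The 10 nearest measured genes on either side gave 20 neighbours. With the drug 5 of these rose and 2 fell in the conventional clone, where 31.4% of all genes were called (median 0.06, against 0.02 over all genes), and 5 rose and 3 fell in the unconventional clone, where 24.9% were (0.09 against 0.02). The drug effects differed for 8, of which 3 were more positive and 5 more negative in the unconventional clone, where 16.3% of all genes were called (-0.08 against 0.00). Between the clones 3 were higher and 8 lower in the unconventional clone with anti-CD3 only, where 42% of all genes were called (-0.10 against -0.07), and 2 higher and 7 lower with the drug, where 44.2% were (-0.15 against -0.08). Of the 6 receptors themselves, Ly9, Slamf7, Cd48, Slamf1 and Cd84 were lower in the unconventional clone in both conditions, with the limits given above for Slamf1 and Slamf7.

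**Figure D4:**
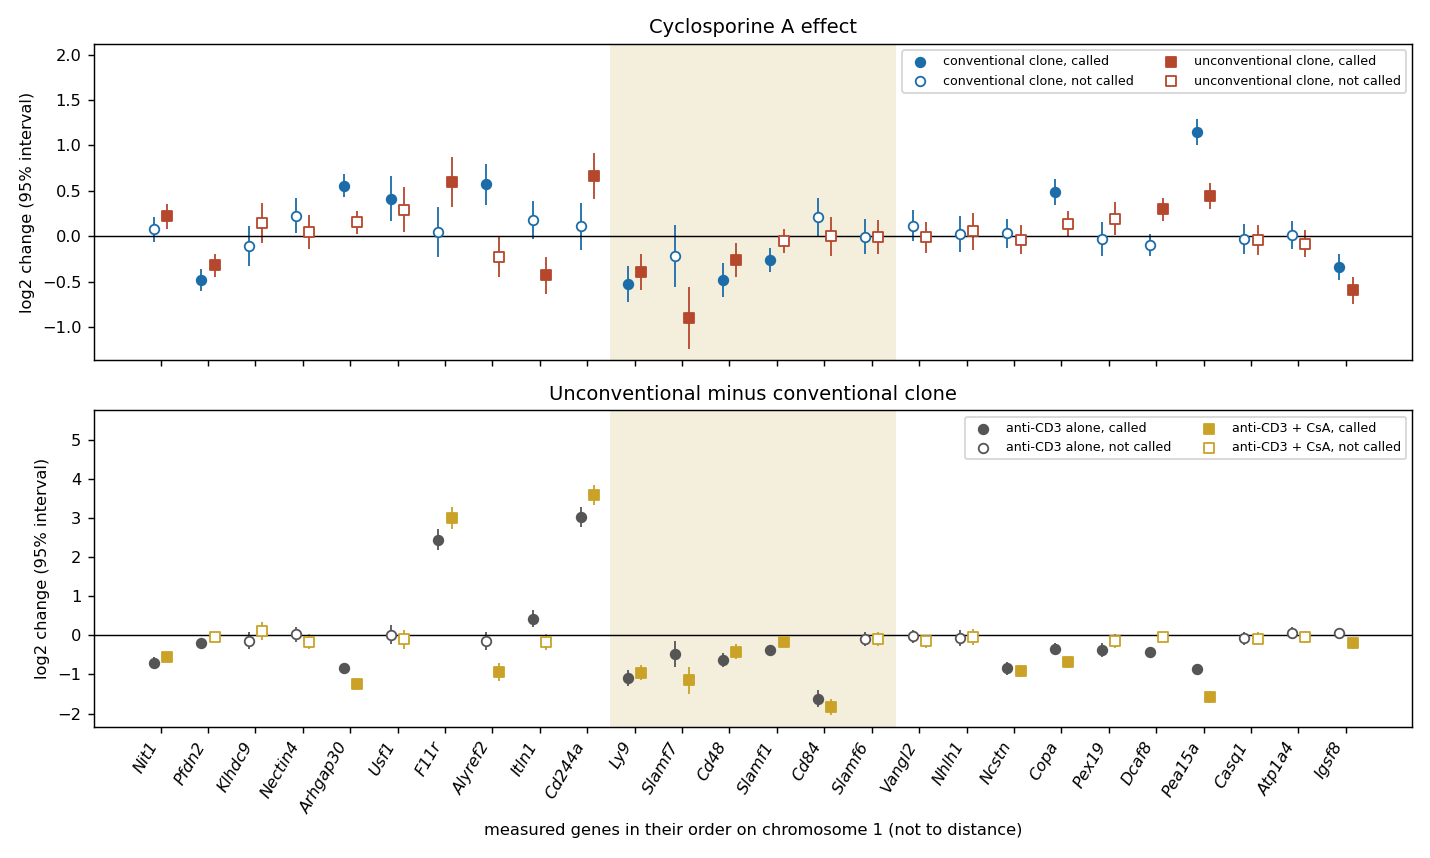
Log2 change with its 95% confidence interval (vertical axis) of 26 measured genes in their order along chromosome 1 (horizontal axis, not to distance), with the 6 SLAM receptor genes on a shaded ground; the upper panel gives the effect of cyclosporine A in each clone and the lower panel the unconventional minus the conventional clone. Filled symbols were called at an adjusted p under 0.05: in the lower panel Cd244a and F11r stand high beside receptors that lie at or below 0.

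The largest called differences among the neighbours went both ways. Between the clones, Cd244a at 3.04 and F11r, a junctional adhesion molecule, at 2.45 were higher in the unconventional clone with anti-CD3 only, and Pea15a at -0.87 was lower (limma adjusted p = 8.03e-14, 5.67e-12 and 2.41e-09). With the drug these 3 were at 3.59, 3.01 and -1.57 (limma adjusted p = 4.03e-15, 1.59e-13 and 1.91e-13). For the drug in the conventional clone they were Pea15a at 1.15, Alyref2 at 0.57 and Arhgap30 at 0.56 (limma adjusted p = 6.41e-11, 0.000241 and 2.76e-07), and in the unconventional clone Cd244a at 0.66, F11r at 0.60 and Igsf8 at -0.60 (adjusted p = 0.000307, 0.0014 and 1.78e-06). For the difference of the drug effects they were Alyref2 at -0.80, Pea15a at -0.71 and Itln1 at -0.61 (limma adjusted p = 0.000774, 2.39e-05 and 0.00414).

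Because several receptors are also carried by other blood cells, markers of such cells were read in every group. Of 9 CD8 T cell markers 8 were measured, with group means between 8.56 and 12.74, while Cd4 lay between 4.21 and 4.32. The 5 measured B cell markers had group means of at most 5.16 and summed levels (log2 of the sum of linear values) between 6.31 and 6.67 over all arrays, and the 5 NK cell markers had means of at most 4.86 and summed levels between 5.92 and 6.39. The granulocyte markers S100a8, S100a9 and Elane had means of at most 5.01, with summed levels between 5.86 and 6.16, and erythroid markers were not analysed here.

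A few markers had group means far apart. Cd8a, which encodes the CD8 alpha chain, had means of 12.50 and 11.92 in the conventional clone without and with the drug, and of 10.31 and 8.56 in the unconventional clone, the order of groups that Ly9, Cd48 and Slamf7 had too. Cd8b1, of the same list, had means of 12.31 and 12.31 in the conventional clone and of 10.24 and 10.26 in the unconventional one. Means of Cd3d, Cd3e, Cd3g and Zap70 were higher with the drug in both clones. Those of Cd247 and Lat were higher with it in the conventional clone and lower in the unconventional one. Of the 4 platelet markers, which were read because platelets carry Cd84, Ppbp had means of 5.11 and 4.25 in the conventional clone and of 10.85 and 9.52 in the unconventional one, while the defining markers Pf4 and Gp9 had means of at most 3.64 and 4.54. Of the 8 macrophage and dendritic cell markers, Itgax had means of 8.91 and 10.23 without and with the drug in the conventional clone and of 9.28 and 10.04 in the unconventional one, while Csf1r and Adgre1 had means of at most 4.29 and 3.70. The summed level of that list ranged from 9.14 to 9.34 and from 10.30 to 10.47 in the conventional clone without and with the drug, and from 9.38 to 9.61 and from 10.05 to 10.36 in the unconventional clone. That of the platelet list was between 6.53 and 6.98 in the conventional clone and between 8.76 and 11.44 in the unconventional one. The part of these markers in the values of the SLAM genes was not tested.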

How the data were processed

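Gene expression was measured on 16 Affymetrix whole-transcript arrays in 4 groups of 4. The authors deposited 1 log2 expression value for each probe set and array (the log2 scale was read from the values). GCOS, Partek 6.2 and RMA are named per the submitters' processing notes, with no role or order (build and annotation not given in the sources used here). RMA background-corrects and quantile-normalizes, which hides a change shared by most transcripts. Values ran from 2.08 to 14.55, array medians from 5.16 to 5.35, and arrays of a group correlated at 0.995 to 0.998. The number of arrays limits the precision.

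Of 28853 probe sets, 21789 had 1 gene symbol, 1621 several and 5443 none here. Where a gene had several probe sets, as 999 did, that with the highest mean was kept, which left 19938 genes with no filter on dim ones. With limma 3.58.1 (R 4.3.3), all 16 arrays entered a model that had 1 mean for each group (12 residual degrees of freedom), with two-sided tests and Benjamini-Hochberg adjustment over all genes. The 5 contrasts were the effect of cyclosporine A in either clone, the difference between both effects, and the clones against each other without and with the drug. Alternatives were 3 normalizations, a mean of at least 6, all probe sets averaged, a trended robust variance, array weights, a replicate block, the groups of a contrast alone, and each array left out. The steps were tested on simulated data.

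The members and lists were chosen with earlier results of these data known. All members were named, with 5 pathway genes in every contrast, the 3 other called pathway genes and the 3 called neighbours with the largest change, and the 3 genes most correlated with each member. Further pathway and marker genes were named after their values were seen.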

Additional observations from a re-analysis of the deposited data

Results flagged for a closer look

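In 9 of 116 sets of 4 arrays (29 genes in 4 groups), 1 array lay far from the other 3 by Dixon's test at the 95% level, and chance alone gives about 1 in 20 such sets. In the unconventional clone with anti-CD3 only these were Sh2d1a replicate 2 at 5.33, Sh2d2a replicate 1 at 10.38 and Cd84 replicate 1 at 4.14. In that clone with cyclosporine A they were Cd48 replicate 2 at 10.08, Cd84 replicate 4 at 3.99 and Dok1 replicate 1 at 6.202. In the conventional clone with cyclosporine A they were Cd84 replicate 4 at 6.02, Sh2d2a replicate 2 at 11.22 and Ptpn6 replicate 2 at 5.67. For Cd84 the 3 distant arrays were each the highest of their group.

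The effect of cyclosporine A differed between the clones by limma's test of the difference itself for 3 members. The differences on the log2 scale, unconventional minus conventional, were -0.68 for Slamf7, -1.28 for Sh2d1a and -1.10 for Sh2d2a. Among the 20 pathway genes 11 were called, with differences of -1.32 for Fyn, 0.75 for Ptpn6, 0.56 for Cd244a, 2.70 for Prkcq, -2.47 for Dok2, -1.50 for Sh2d1b1, -1.42 for Gata3, -1.08 for Rasa1, -0.89 for Inpp5d, -0.45 for Vav1 and 0.44 for Dok1. Among the 20 neighbours of the receptor genes, Cd244a included, 8 were called, the others being -0.80 for Alyref2, -0.71 for Pea15a, -0.61 for Itln1, 0.55 for F11r, -0.41 for Arhgap30, 0.39 for Dcaf8 and -0.35 for Copa. The calls for Slamf7 and Cd244a were lost under alternatives, as given with their values above. The call for Dok1 was lost under median centring (0.41) and quantile normalization (0.37) and without any of 10 arrays (0.36 to 0.45, limma adjusted p from 0.0558 to 0.0964): replicates 1, 2 and 3 of the untreated conventional clone, 1 and 4 of the treated one, 1 and 3 of the untreated unconventional clone, and 2, 3 and 4 of the treated one. That for F11r was lost under median centring (0.53), quantile normalization (0.56) and array weights (0.56) and without any of 11 arrays (0.42 to 0.58, limma adjusted p from 0.0529 to 0.107): replicates 1, 2 and 3 of the untreated conventional clone, all 4 of the treated one, 3 and 4 of the untreated unconventional clone, and 1 and 2 of the treated one.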

How the results depend on the processing

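Of 972 recomputed changes of the 8 members, 936 kept their direction and their side of the threshold, 34 lost the call, 2 gained it and 0 reversed. For 21 other genes 2472 of 2579 did so, 92 lost and 15 gained the call, and 0 reversed. Restricting the test to genes with a mean of at least 6 removed Slamf1, Slamf6, Cd84 and Sh2d1a. Between the clones 3 members instead of 6 were then called with anti-CD3 only, where 70.5% of 8992 genes were. With cyclosporine A 4 instead of 7 were called, where 75.2% were. For the drug in the conventional clone 3 instead of 4 were called, where 64.2% of these genes were. In the unconventional clone the drug changed 54.1% of these genes, so the called share was higher among genes of higher level. Leaving out 1 array gave 4 to 5 called members for the drug in either clone, 2 to 3 for the difference of effects, and 5 to 6 and 6 to 7 between the clones. Over all genes, same-numbered arrays shared little (r of same-numbered deviations -0.13 to 0.28), and 7 of 16 arrays were closest to their own number. These values do not settle whether replicate numbers pair the samples. For Slamf7, replicate 4 was the highest array in each of the 4 groups. With a replicate block the SE of the Slamf7 drug effect in the conventional clone was 0.10 instead of 0.16. A replicate block gave 4, 5, 3, 6 and 7 called members, changed no member's call, ended that of Rasa1 between the clones with anti-CD3 only (0.23, limma adjusted p = 0.0622), and moved the genes called in all in that contrast from 8376 to 8317. Median centring moved the share of higher calls there from 48.33% to 59.95% of the called genes, and for the drug in the unconventional clone from 50.66% to 41.84%.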
